A study of Caenorhabditis elegans with 4 samples.

Results

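Chromosome III held 1780 of the 9214 peaks that the authors listed for the whole series, all those whose sequence name in the list was III. The list came from chromatin immunoprecipitation followed by sequencing (ChIP-seq), which maps where a chromatin protein lies on the genome. All samples were adult Caenorhabditis elegans hermaphrodites of the strain fem-2(b245), mutant in fem-2, a gene of the sex determination pathway that itself lies on III, and 2 were ChIP and 2 input DNA. The series was grown at 20 degrees Celsius per its design text, and its labels call the animals young adults with a germline where the growth protocol has gravid adults. No other strain or treatment is among these samples, so no comparison between conditions could be made. Each ChIP replicate has its own peak list, with 199 of 1178 peaks on III in replicate 1 and 1255 of 6421 in replicate 2.

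The sample titles name the target as KLE-2, while the antibody record names CEC-1, and the lists cannot settle which of them was immunoprecipitated. KLE-2 is a subunit of condensin II, a ring-shaped complex that folds and compacts chromosomes ahead of cell division. CEC-1 is a chromodomain protein, of a family that reads methylated histones. Worm autosomes have no localised centromere, and their centres recombine little while their arms recombine more, carry more repeats and more heterochromatin marks. Each arm is here taken as 25% of the length, counted from its end, and the centre as the middle 50%, and a peak belongs where its midpoint lies.

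III was proposed as a gene-dense chromosome, which the gene table did not bear out. It held 2642 protein-coding genes, or 192 per Mb, in the RefSeq annotation of assembly WBcel235. Chromosomes I and IV had 191 and 188 per Mb, and II and V were denser, at 226 and 239. III is therefore called by its number only.

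Peaks were denser on III than on the other autosomes pooled in 2 of the 3 lists, and replicate 1 was the exception. The whole-series list had 129 peaks per Mb on III (exact 95% Poisson interval 123 to 135), which covered 5.89% of the chromosome, against 97.8 per Mb and 4.45% on I, II, IV and V together. Replicate 2 had 91.1 peaks per Mb on III (86.1 to 96.2) against 67.8 on the others. Replicate 1 had 14.4 per Mb (12.5 to 16.6) against 13.3. The ratio of III to the other autosomes was 1.32 in the whole-series list (1.25 to 1.39, exact binomial test, adjusted p = 1.71e-23) and 1.34 in replicate 2 (1.26 to 1.43). In replicate 1 it was 1.08 (0.92 to 1.26, adjusted exact binomial p = 0.316), an interval that includes 1. The binomial test counts peaks, which cluster and share a library, so its p-values are too small. With the 5 autosomes as the units, III was not apart from the rest (exact permutation p = 0.6, where the smallest possible is 0.2).

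The excess was shared with chromosome I. Against I alone the ratio was 0.98 in the whole-series list (0.92 to 1.04) and 0.98 in replicate 2 (0.90 to 1.05). Against II it was 1.39 (1.29 to 1.49) in the whole-series list, against IV 1.31 (1.22 to 1.40) and against V 1.71 (1.60 to 1.83). In replicate 1 only the ratio to V, 1.38 (1.13 to 1.68), had an interval that excluded 1, and those to I, II and IV were 0.89, 0.99 and 1.09. III therefore stood with I above II, IV and V in 2 of the 3 lists, and replicate 1 did not show that order.

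**Figure D1:**
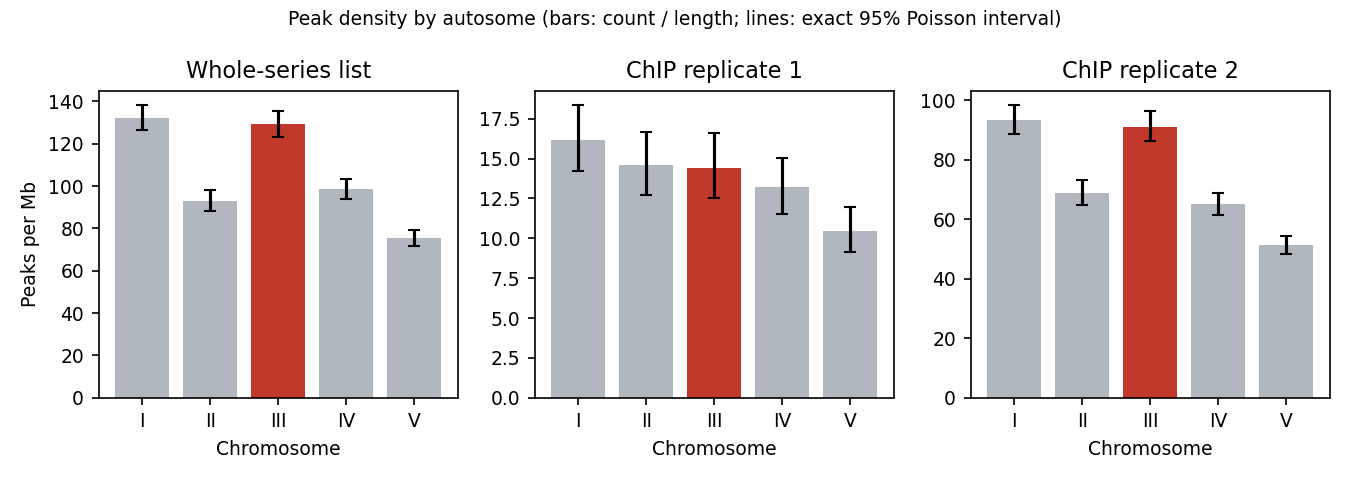
Peaks per Mb (vertical axes, a separate scale for each list) on the 5 autosomes in the whole-series list and each ChIP replicate, with exact 95% Poisson intervals that cover counting error only. III, in red, stands beside I at 129 and 132 per Mb in the whole-series list, and at 14.4 per Mb within the range of the other autosomes in replicate 1.

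Along III, density rose from the left arm to the right arm. In the whole-series list the left arm had 384 peaks or 111 per Mb (101 to 123), the centre 848 or 123 per Mb (115 to 132) and the right arm 548 or 159 per Mb (146 to 173). In replicate 2 the same regions had 70.5, 92.3 and 109 peaks per Mb (243, 636 and 376 peaks). In replicate 1 they had 11.9, 14.7 and 16.5 per Mb (41, 101 and 57 peaks), with intervals that overlap. The order from left to right was the same in all lists. The right arm held 1.43 times as many whole-series peaks as the left (1.25 to 1.63, exact binomial test, adjusted p = 2.6e-07), and 1.55 times as many in replicate 2 (1.31 to 1.83). Peaks cluster, so this p-value is too small. With whole-series peaks closer than 2000 bp counted as 1 group, the ratio was 1.35 (1.13 to 1.62, exact binomial test, adjusted p = 0.00117). In replicate 1 the ratio of 1.39 (0.91 to 2.13) missed the threshold of 0.05 (exact binomial test, adjusted p = 0.155).

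A difference between the arms was not particular to III. The whole-series ratio of right to left arm was 1.50 on II and 1.07 on V, while I and IV leaned the other way, at 0.61 and 0.74. In replicate 2 it was 1.71 on II, and in replicate 1 it was 2.60 there, so II leaned further to the right than III in every list. The total share of whole-series peaks on both arms was 52.4% on III (50.01 to 54.7%) and 54.2% on the other autosomes. That difference of -1.82 percentage points (-4.43 to 0.78) did not pass Fisher's exact test (adjusted p = 0.173). The call depended on the setting, since the difference was -2.99 points with arms widened to cut the length in 3 equal parts (adjusted exact p = 0.0139), -2.91 points without runs of at least 10 peaks (adjusted exact p = 0.0345) and 0.052 points in replicate 2 (adjusted exact p = 0.975).

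**Figure D2:**
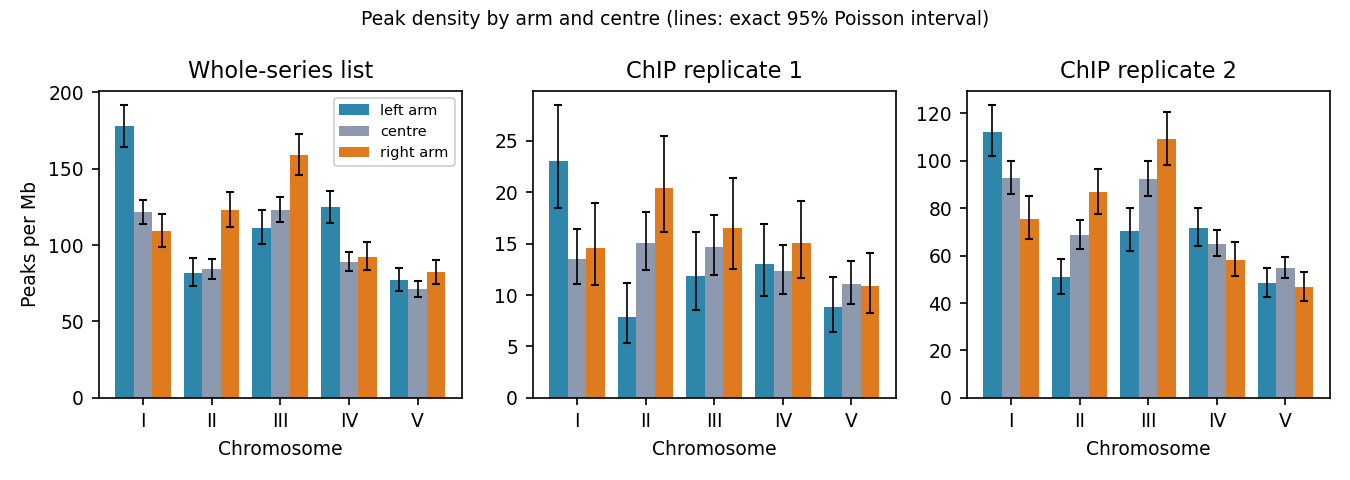
Peaks per Mb (vertical axes) on the left arm, centre and right arm of each autosome in the 3 lists, with exact 95% Poisson intervals. On III the bars climb from left to right in every list, from 111 to 159 per Mb in the whole-series list, and II shows the same direction.

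In finer steps the left end was among the sparsest stretches of III. The first 2 megabases had 89 and 113 whole-series peaks, 54 and 65 replicate 2 peaks and 10 and 9 replicate 1 peaks. From 11000001 to the right end the whole-series list had 155, 177 and 135 peaks in successive megabases, the last of them only 0.784 Mb long (172 per Mb). The count of 177 between 12000001 and 13000000 was the highest of any megabase of III, with 109 replicate 2 peaks. Divided into bins of 5% of the length, III ranged 2.25-fold in the whole-series list, from 85.6 to 193 peaks per Mb. The other autosomes ranged from 1.77-fold on V to 3.15-fold on IV, so III was neither the most even nor the most uneven.

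**Figure D3:**
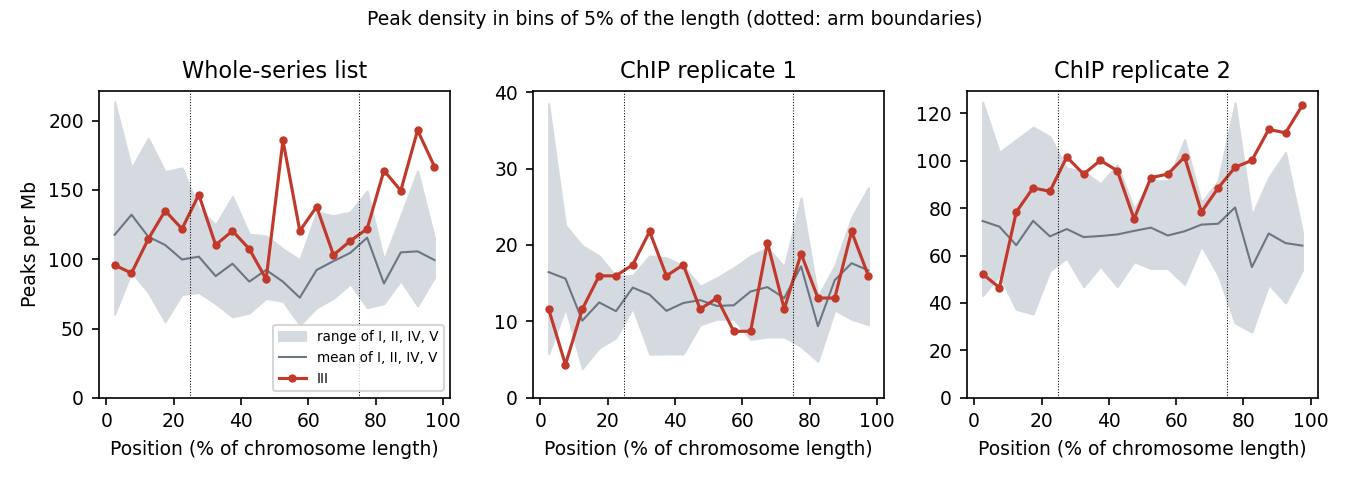
Peaks per Mb (vertical axes) in 20 bins of 5% of the chromosome length (horizontal axes) on III (red), with the mean (line) and range (grey band) of I, II, IV and V, in the 3 lists. III lies below the mean of the others in the first 10% of its length in every list and above the grey band in the last 20% in replicate 2, and its bin of 128 whole-series peaks just right of the middle holds 64 replicate 2 and 9 replicate 1 peaks.

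Score and replicate overlap varied along the chromosome in another way than density, being highest in the centre. Scores are the authors' own peak caller values on an unstated scale and were compared within a list only. The median whole-series score was 14.2 in the centre of III (interquartile range 5.52 to 47.6), 8.79 on the left arm (4.72 to 25.4) and 9.81 on the right arm (5.13 to 29.8). In replicate 2 the medians were 770 in the centre, 383 on the left and 407 on the right arm. Replicate 1 did not repeat this, with 130 in the centre, 151 on the left and 109 on the right arm. A higher centre was shared by the other autosomes in the whole-series list, with centre medians of 10.2 to 13.9 and arm medians of 6.88 to 11.1.

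Within III, the left arm held the largest share of peaks that neither replicate overlapped, with overlap meaning at least 1 shared bp. It was 109 of 384 (28.4%, exact 95% binomial interval 23.9 to 33.2%), against 125 of 848 in the centre (14.7%, 12.4 to 17.3%) and 112 of 548 on the right arm (20.4%, 17.1 to 24.1%). The dense right arm was thus between the sparse left arm and the centre in this respect. A larger share on arms was not particular to III, since each arm exceeded the centre on every other autosome too. Arm shares there ran from 17.3% to 35.6%, both on II, and centre shares from 13.7% on II to 22.1% on IV. By megabase, the share of whole-series peaks that replicate 2 overlapped was 60.7% and 67.3% in the first 2 and reached 93.8% between 4000001 and 5000000. It was 64.1% between 7000001 and 8000000, where a long run of peaks lies (described below), and 79.9% there without that run.

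As a whole, peaks of III were more often overlapped by replicate 2 and less often by replicate 1 than those of the other autosomes. Replicate 2 overlapped 1411 of the 1780 (79.3%), against 75.4% elsewhere, a difference of 3.88 points (1.69 to 5.98, Fisher's exact test, adjusted p = 0.00115). Replicate 1 overlapped 252 (14.2%) against 16.7%, a difference of -2.51 points (-4.30 to -0.60, adjusted p = 0.0121 in the same exact test). Peaks in neither replicate numbered 346 (19.4%) against 23.2% (adjusted exact p = 0.00117), but I and II were close to III, with 19.7% each (exact permutation p = 0.6 over chromosomes). Among the 50% of all nuclear peaks with the highest scores, the replicate 2 shares were 95.8% and 95.4% (difference 0.38 points, -1.24 to 1.73, adjusted exact p = 0.656), and 3.55% and 3.57% were in neither replicate (adjusted exact p = 1). The replicate 1 difference remained there, at 21.6% against 25.9% (adjusted exact p = 0.00849). Of the replicate 1 peaks, 95.5% on III and 93.8% elsewhere overlapped a whole-series peak. The replicate 1 share therefore largely follows from the peak numbers of the 2 lists and is no result apart from density. The order of chromosomes limits these differences, because the replicate 2 share was as high on I as on III and ranged from 71.7% to 79.4% over the other autosomes. The replicate 1 share was the lowest of the 5 autosomes on III, with the others from 15.2% to 19.7% (exact permutation p = 0.4 over chromosomes). The sources used here do not say whether the reads of the replicates went into the whole-series list, so overlap with them is no independent check.

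The 4 kinds of overlap sorted the peaks of III by strength. Both replicates overlapped 229 peaks, with a median score of 80.7 (interquartile range 24.5 to 143) and a median width of 647 bp. Replicate 2 alone overlapped 1182, with a median score of 13.7 (5.93 to 37.8) and 326.5 bp. Neither overlapped 346, with 4.77 (3.57 to 6.72) and 258 bp, and replicate 1 alone overlapped 23, with 7.26 (4.44 to 9.98) and 513 bp. Medians on the other autosomes were close, at 80.8, 13.2, 4.52 and 7.81 in the same order. Of the peaks in neither replicate 63.9% lay on arms (58.6 to 68.9%). The arm share was 49.4% of those in replicate 2 alone (46.5 to 52.3%) and 48.5% of those in both (41.8 to 55.1%). On the other autosomes these shares were 63.8%, 51.5% and 49.4% in the same order, so this pattern was not particular to III. Of the 23 in replicate 1 alone, 16 lay on arms (69.6%, 47.1 to 86.8%). That interval includes the shares of the other kinds. In addition, 6 and 5 of these peaks lay in 2 runs of the right arm and are not independent, so this kind was not placed in an order by position.

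Across III, scores ran from 1.42 to 243.91 with a median of 10.3, and widths from 146 to 6327 bp with a median of 337.5 bp (interquartile range 225 to 519 bp). These medians stood inside or next to the range of the other autosomes, 9.06 to 10.6 for the score and 325 to 334.5 bp for the width. The median width was the largest of the 5 by a few bp (exact permutation p = 0.2 over chromosomes, the smallest possible). Wider peaks had higher scores, with a rank correlation of 0.68 across the 1780 peaks, which come from 1 list and are no replicates. Of all nuclear peaks in the top 10% by score, 182 were on III, or 10.2% of its peaks, against 10.6% on the other autosomes. Replicate 2 overlapped all 182 of them, and replicate 1 overlapped 109 (59.9%). At the other end, in the lowest 10%, replicate 2 overlapped 84 of 159 (52.8%) and replicate 1 overlapped 8.

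**Figure D4:**
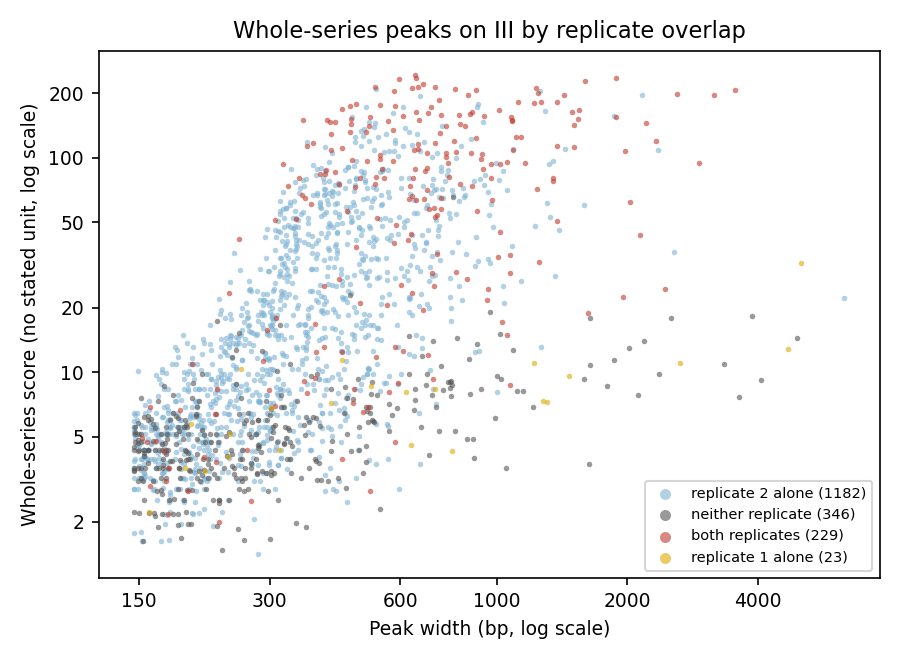
Whole-series score (vertical, log scale, no stated unit) against peak width in bp (horizontal, log scale) for the 1780 peaks of III, coloured by the replicate lists that overlap them. Peaks in both replicates (red) fill the upper part with a median score of 80.7, while those in neither (dark grey) have a median of 4.77 and extend at scores under 20 to widths of several kilobases.

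Fewer of the broad peaks were found in both replicates on III than on any other autosome, as a share. III had 26 whole-series peaks of at least 2000 bp, 8 on the left arm, 9 in the centre and 9 on the right arm. Both replicates overlapped 9 of the 26 (34.6%), against 73 of 100 on the other autosomes (73.0%), a difference of -38.4 points (-55.4 to -17.03, Fisher's exact test, adjusted p = 0.00152). On the single chromosomes it was 11 of 18 on I, 20 of 28 on II, 22 of 26 on IV and 20 of 28 on V. III was thus the lowest of the 5, and with chromosomes as the units the exact permutation p was 0.2, the smallest possible. Fisher's test treats peaks of 1 list as independent, so its p-values are too small here and in the other comparisons of shares. The 10 broad peaks of III in neither replicate had scores from 7.66 to 18.4, and the 9 in both had scores from 24.4 to 206.68. On the other autosomes the score ranges of these kinds overlapped, at 6.8 to 27.4 for 13 peaks in neither and 18.7 to 246.9 for 73 in both. Without long runs of peaks, 8 of 18 broad peaks of III were in both replicates against 71 of 93 (-31.9 points, adjusted exact p = 0.0162). The size of the difference depended on the minimum width. At 1000 bp it was -18.4 points (50 of 107 against 282 of 433), and -12.8 points without runs (-24.1 to -1.83). At 3000 bp it was -53.0 points, from 2 of 10 peaks on III. The comparison was chosen after the values had been seen, with p-values adjusted over 8 versions of it that differ in minimum width and in the runs.

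The 5 widest peaks show this mixture. The widest lay from 6566846 to 6573172 (6327 bp, score 22.2) with a replicate 2 score of 181 and no replicate 1 peak. The next, from 2077585 to 2082622 (5038 bp, score 32.1), had a replicate 1 score of 1476 and no replicate 2 peak. Those from 2497028 to 2501956 (4929 bp, score 14.5) and from 325869 to 329926 (4058 bp, score 9.21) were in neither list. The remaining one, from 7406727 to 7411414 (4688 bp, score 12.9), had a replicate 1 score of 112 and belongs to the longest run. None of the 5 was in both replicates, and 3 of them lay on the left arm.

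The peaks with the highest scores lay in all 3 regions of III and were shorter than 2000 bp, though wider than its median peak. Of the peaks in both replicates, the 10 with the highest whole-series scores had scores of 212.57 to 243.91 and were 524 to 1888 bp wide, with 3 on the left arm, 4 in the centre and 3 on the right arm. All 10 had the replicate 2 score of 3100, a value at which 204 of the 1255 replicate 2 peaks of III stood exactly, so these cannot be ranked in that list. Their replicate 1 scores ranged from 175 to 2344, with a median of 663. The first lay from 1080392 to 1081038 on the left arm (score 243.91, 647 bp), with a replicate 1 score of 285. The next was from 3866766 to 3868653 in the centre (236.64, 1888 bp), with the highest replicate 1 score of the 10, 2344. It was followed by the peaks from 7854275 to 7854926 (235.97, replicate 1 score 1519) and from 10758884 to 10759479 on the right arm (232.7, replicate 1 score 1358). The peak from 1949990 to 1951591 scored 229.01 in the whole-series list and had the lowest replicate 1 score of the 10. Across all 229 peaks in both replicates, whole-series and replicate 1 scores were close to unrelated in rank (rho = 0.09). The rank correlation with replicate 2 scores could be given only below 3100 and was 0.65 over 1018 peaks, of which 48 were in replicate 1, so both values come from largely different peaks and were not compared.

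High whole-series scores were also seen without a replicate 1 peak. The 5 highest peaks overlapped by replicate 2 alone scored 177.87 to 208.72 and all had 3100 in replicate 2. They lay from 11007591 to 11008116, from 8335313 to 8336569, from 8441094 to 8443252, from 11141920 to 11142583 and from 1859169 to 1860074. Of the 393 whole-series peaks of III on a replicate 2 peak of 3100 or more, replicate 1 overlapped 181 (46.1%, 41.0 to 51.1%). Of the 1018 on a weaker replicate 2 peak it overlapped 48 (4.72%, 3.50 to 6.20%), and of the 369 with no replicate 2 peak 23 (6.23%, 3.99 to 9.21%). The replicate 1 share was thus high for whole-series peaks on the strongest replicate 2 peaks, and the intervals of the other 2 groups overlapped. Several whole-series peaks can lie on 1 replicate 2 peak, so these intervals are too narrow. Of the replicate 2 peaks of III at 3100 or more, 123 had a replicate 1 peak and 87 had none.

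Peaks of III without a counterpart had lower median scores than those with one in each list. The highest-scored whole-series peak in neither replicate lay from 2502049 to 2502842 on the left arm, with a score of 65.3, and the next of that kind scored 22.8 (13779046 to 13779505, close to the right end). The first one stood beside the 4929 bp peak named above, and both form a pair that neither replicate list contains. In the replicate 1 list, 15 of the 199 peaks of III had no replicate 2 peak, and their median score was 67.9 against 139 for the other 184. The strongest of them by far was that from 2077239 to 2083031 (5793 bp, score 1476), and the other 4 of the highest 5 scored 97.7 to 165. In the replicate 2 list, 1077 of the 1255 had no replicate 1 peak, with a median score of 396 and width of 963 bp, against 3100 and 1722 bp for the 178 that had one. The highest 5 without one scored 3105 to 3227, led by that from 2803817 to 2805808.

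A small set of replicate 1 peaks was overlapped by replicate 2 and by no whole-series peak. They numbered 5 on III, of 184 replicate 1 peaks that replicate 2 overlapped, and 2 to 7 on the other autosomes. The highest replicate 1 score among them was at the left end of the chromosome. There a replicate 1 peak from 2 to 1340 scored 787 and a replicate 2 peak from 2 to 494 scored 549. The first whole-series peak of III began only at 62398, compared with base 1 on I and V, 91 on II and 17312 on IV. Next by replicate 1 score was the peak from 12143297 to 12144458, with 371 in replicate 1 and 662 in replicate 2. Another, from 8980664 to 8982690, scored 63.8 in replicate 1 and lay on a replicate 2 peak of 3100. No replicate 2 peak of III outside the whole-series list scored above 661.79. That replicate 2 peak therefore did overlap a whole-series peak, and only the replicate 1 peak was absent from the list.

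Short gaps were about as frequent on III as on the other autosomes, while long gaps were rarer than on II, IV and V. The median gap between neighbouring whole-series peaks was 2960 bp (interquartile range 648 to 9224 bp), against 3191 bp (690.5 to 12463 bp) elsewhere. Gaps under 2000 bp made up 744 of 1779 (41.8%, 39.5 to 44.2%), against 41.3% (40.1 to 42.5%). In replicate 2 the median gap was 4627.5 bp and 31.2% were under 2000 bp, against 31.4% elsewhere, and in replicate 1 the share was 9.09% against 11.6%. Close gaps on III were thus as frequent as elsewhere, within the intervals. Gaps over 50 kb numbered 16 on III (1.16 per Mb) and 17 on I (1.13 per Mb), against 55 on II (3.60 per Mb), 60 on IV (3.43 per Mb) and 81 on V (3.88 per Mb). Their low rate on III was thus shared with I, and the longest was 93.3 kb, the shortest such maximum of the 5.

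No 100 kb window of III was empty. Among 137 full windows the median held 13 whole-series peaks (interquartile range 9 to 16) and the lowest held 3, as did those from 6700001 to 6800000 and from 8500001 to 8600000. Every window had at least 1 replicate 2 peak, whereas 31 had no replicate 1 peak. The fullest window, from 7400001 to 7500000, held 44 whole-series peaks but only 4 replicate 2 peaks and 1 replicate 1 peak. The next 2 were both on the right arm and had many replicate peaks. They were 11500001 to 11600000, with 27 whole-series, 14 replicate 2 and 2 replicate 1 peaks, and 12400001 to 12500000, with 26, 18 and 4. The longest peakless stretch, from 9956888 to 10050217, had 2 replicate 2 peaks in it, as did that from 690791 to 783193 (92.4 kb).

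Clusters of peaks closer than 2000 bp held most of the peaks of III. Of its 1036 such groups, counting lone peaks, 663 were lone peaks, 209 were pairs, 158 held 3 to 9 peaks and 6 held at least 10. The share of peaks that replicate 2 overlapped was similar for lone peaks (84.3%, 81.3 to 87.0%), pairs (80.6%, 76.5 to 84.3%) and groups of 3 to 9 (82.5%, 79.2 to 85.4%). In the 6 long runs it was 17.02% (10.1 to 26.2%, 16 of 94 peaks). A low share in runs was common to the other autosomes, with 27 of 98 on I, 12 of 37 on II, 14 of 110 on IV and 11 of 48 on V. Over all peaks of those chromosomes it was 71.7% to 79.4%. The replicate 1 share went up with group size, from 9.20% of lone peaks to 13.2% of pairs, 19.2% in groups of 3 to 9 and 21.3% in runs. These intervals treat peaks of the same run as independent, so no separation of runs from smaller groups is drawn from them. Of the 16 run peaks in replicate 2, 14 lay in a single run, from 2099085 to 2117548. Peaks in runs had the lowest median score (7.29) and the largest median width (518.5 bp).

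The 6 runs behaved in different ways. The longest, from 7405371 to 7440119 in the centre, had no replicate 2 peak over 34.7 kb, and a single replicate 1 peak of 6776 bp, scored 112, lay over its first 3 peaks. That from 13584174 to 13599121 had 10 peaks that covered 87.7% of 14.9 kb, all in neither replicate. On the right arm, the run from 11429351 to 11436527 had 6 of 10 peaks in replicate 1 and that from 13074749 to 13086490 had 5 of 14, and neither had any in replicate 2. Conversely, the run from 11593496 to 11609381 had 2 of 13 in replicate 2 and none in replicate 1. Only in the run from 2099085 to 2117548 did replicate 2 overlap every peak (14 of 14, with 9 replicate 2 peaks over the run), and whole-series scores there reached 104.14. Without the 94 peaks of these runs, 16.7% of the peaks of III were in neither replicate and the median score was 11.5. Runs held 5.28% of the peaks of III, within the range of 2.60% on II to 6.37% on IV.

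**Figure D5:**
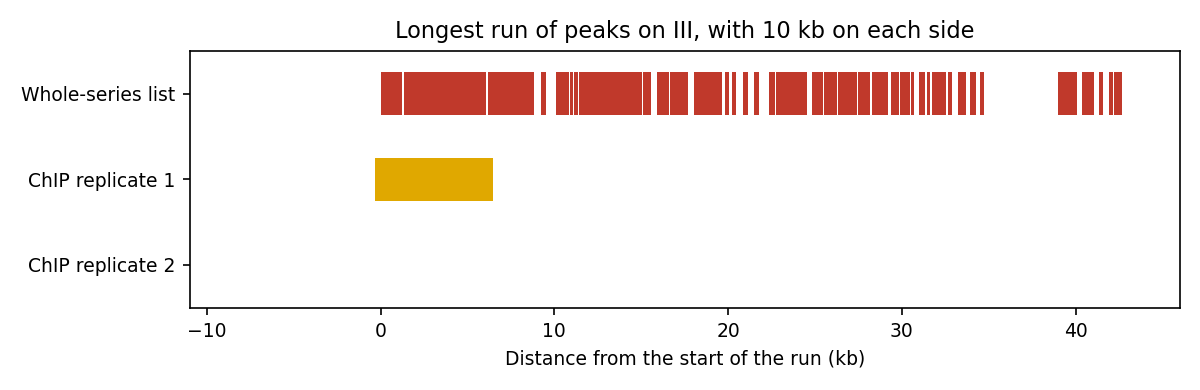
Peaks in the 3 lists (rows) around the longest run on III, by distance in kb from its start (horizontal axis), with 10 kb on each side. The 33 whole-series peaks of the run are packed over 34.7 kb, replicate 1 has 1 peak at its start and replicate 2 has none in the stretch shown.

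Replicate peaks often held several whole-series peaks. Of the 1255 replicate 2 peaks of III, 854 overlapped exactly 1 whole-series peak, 228 overlapped at least 2 (18.2%, against 16.5% elsewhere) and 173 none. Those 173 were weak, with a median score of 78.6 against 775 for the rest, and 96 of them lay on arms. Of the 199 replicate 1 peaks, 190 were in the whole-series list (95.5%, 91.6 to 97.9%), and 46 overlapped at least 2 of its peaks.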

How the data were processed

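The 3 deposited peak lists were used, 1 for the whole series and 1 for each of 2 ChIP samples, with WormBase WS220 coordinates per the file headers (ce10 in the submitters' processing notes, which also name BWA). MACS is named as caller in the replicate lists and MACS v2 in the whole-series list. Each peak has a position and a score deposited by the authors, on a scale that is not stated. Threshold, control and pooling are not given in the sources used here. Input values were not used, and depth is unknown.

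Chromosome lengths were the highest peak end over the 3 lists. The 2 mitochondrial peaks were left out. Shares have exact (Clopper-Pearson) 95% intervals, densities exact Poisson intervals and differences of shares Newcombe intervals, which cover counting error only. Tests were two-sided, with Benjamini-Hochberg adjustment over 6, and an alternative setting's p took its main test's place among them. Replicates may be technical, since the labels name no separate cultures. Functions were tested on simulated data. Python 3.11.15, SciPy 1.17.1 and pandas 2.3.3 were used.

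The chromosome, the settings and the peaks named were chosen with earlier results of these data known. Peaks named were the highest-scored by kind of overlap, the widest, the runs of at least 10, the fullest and emptiest windows and the longest gaps. The 5 shared replicate 1 peaks absent from the whole-series list, the left end and the broad-peak comparison were added after seeing values. Peaks were not assigned to genes, because the gene table is of another build, and no sequence is shown.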

Additional observations from a re-analysis of the deposited data

How the results depend on the processing

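Of 43 alternative values, 28 kept their direction and their side of the threshold, or moved within their interval. The density ratio of III ranged from 1.08 to 1.34 with the list of replicate 1 or replicate 2 alone, and passed the test in all other tested alternatives (clusters, highest scores, peaks in a replicate, no runs). The ratio of right to left arm ranged from 1.39 to 1.55 in the single lists. In the whole-series list it fell to 1.24 (1.11 to 1.40) with arms that cut the length in 3 equal parts. It was 1.35 both with clusters of peaks counted and without runs. The arm share difference was -2.99 points with wider arms (the length cut in 3 equal parts) and -2.91 without runs, both past the threshold, and -2.66 to 0.052 in the single lists, where replicate 2 turned the direction. Among the 50% highest scores, the difference was 0.38 points for overlap with replicate 2 and -0.023 for neither replicate. The cause was not tested. By construction, gaps under 1000 and 5000 bp made up 30.9% and 61.3%, and gaps under 2000 bp 9.09% to 31.2% in the single lists. Median score and width were 36.4 and 461 bp among the highest scores, and 16.0 and 362 bp in peaks of at least 1 replicate. Leaving out runs, and the widths other than 2000 bp in the broad-peak comparison, were chosen after seeing the data. Without peak depth or input values, the counting intervals are the only error of a value here. No paired analysis was possible because the 3 lists used here hold no separate values for the input samples that share their replicate numbers.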
